A study of Mus musculus with 23 samples.

Results

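The comparison set 6 libraries of mouse cells recovered from blood 5 days after experimental stroke against 5 libraries of the same kind of cell taken straight from culture, 11 of the 23 RNA-seq libraries of a study on transferred group 2 innate lymphoid cells (ILC2s). Members were chosen by their labels alone (sample group and tissue), and no measured value entered the choice. Donors in all groups were male, 8 to 10 weeks old, GFP transgenic and wild-type on B6.Cg-Tg(CAG-GFP)Smoc, a strain with green fluorescent protein under the ubiquitous CAG promoter, and had received intraperitoneal IL-33 every 2 days for 7 days. Bone marrow and spleen cells of these mice were depleted of CD11b, Gr1, CD3ε, CD45R/B220 and Ter119, selected for CD25 with magnetic beads and kept for 14 days in IL-33 with IL-2, IL-7 and IL-15, so the baseline had also been through all of these steps. The cells for transfer passed a sort for CD45+Lin-ST2+KLRG1+CD127+ and went into a vein 6 hours after the stroke, which was made by middle cerebral artery occlusion (MCAO), the blockage of a brain artery. The day 5 cells were taken from blood 5 days after MCAO. The baseline came directly from the culture medium, and the sources used here do not state whether it passed the final sort, how the transferred cells were separated from host cells on recovery, or whether replicates were separate animals or cultures. The p-values therefore measure the spread between these libraries, which may be technical in part.

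ILC2s are tissue-resident lymphocytes without rearranged antigen receptors. They depend on the transcription factors GATA3 and RORα, respond to the alarmin IL-33 through its receptor ST2 (gene Il1rl1) and to IL-7 through CD127 (Il7r), and secrete type 2 cytokines such as IL-5 and IL-13. Natural killer (NK) cells are cytotoxic innate lymphocytes that circulate in blood, depend on T-bet and EOMES, carry Ly49 and NKG2 receptors and kill with perforin and granzymes. High IL-2 or IL-15 in culture is known to raise granzymes, CD25 and growth metabolism in lymphocytes, and circulating lymphocytes keep KLF2 and S1PR1 to move between blood and lymph.

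Depth followed the labelled batch: the batch 1 libraries of both groups (replicates 1 to 3 of each) held 12.1 to 14.5 M reads, and those of batch 2 (baseline replicates 4 and 5, day 5 replicates 4 to 6) held 32.3 to 44.0 M. Baseline replicates 1 to 3 were closer to each other than to the rest, with a chi-square per degree of freedom of 4.19 to 12.5 between them against 875 to 1300 for the other baseline pairs and 45.0 to 323 for pairs of day 5 libraries. They still differed by more than counting noise and were kept as separate replicates. Baseline replicates 4 and 5 held the most genes at 0 of the baseline libraries (7466 and 9394 of 19945), and replicate 5 stood furthest from its own group (median correlation over genes 0.852). The most abundant gene was the granzyme gene Gzmf in baseline replicates 1 to 3, Lgals3 in replicate 4 and Gzma in replicate 5, and on day 5 it was the hemoglobin gene Hba-a1 in replicates 1 and 2 and Actb in replicates 3 to 6. Blood day 1 replicates 2 and 6, which serve only in the comparison of the blood days, stood apart from their group (0.773 and 0.836).

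On day 5, 3000 of 15268 tested genes were higher than in culture (19.6%) and 1748 were lower (11.4%), by limma on log2(normalized count + 1) with the batch as a covariate and a Benjamini-Hochberg adjusted p under 0.05. Normalized counts are reads divided by 1 size factor per library, and log2 differences below are from this fit with their standard errors (SE). The difference was at least 4-fold for 2226 of the higher and 918 of the lower genes. Of the 4748 called genes (31.1% of those tested), 4666 (98.3%) had the same sign within both batches. The calls came from both batches together, so a shared sign is in part set by the selection. Batch 1 alone, with fewer libraries, called 68.4% of the 4748 genes with the same sign, and batch 2 alone 57.5%. The size of the difference depended on the batch in 1285 genes (8.42% of those tested). This count was 581 without day 5 replicate 2, 2345 without baseline replicate 4 and in between for the other 9 libraries left out in turn. The median log2 difference over all tested genes was 0.14. With values rescaled to equal library totals this median was 0.44 and 76% of the called genes were higher, in place of 63.2%. All 6 day 5 libraries stood above all 5 baseline libraries for 2322 genes (15.2%), and below them for 1456 (9.54%). These shares, with the 19.6% higher and 11.4% lower, are the background for the list counts below.

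Of the genes of the 3 sort markers ST2, CD127 and KLRG1, Klrg1 was abundant in the libraries labelled as baseline, while the other 2 were nearly absent. The sort is described for the cells for transfer, and whether the baseline passed it is not stated. Il1rl1 (chr1:40429570-40465415), which encodes the ST2 used in the sort, had 3 reads in all 5 baseline libraries, all of them in replicate 1, against 903 reads on day 5, a ratio of 161 (95% counting interval 54.9 to 782). Day 5 libraries held 47.2 to 232 (median 115) normalized counts of Il1rl1, so every one of them lay above the baseline. Il7r (chr15:9505788-9530176), the gene of CD127, had 75.8, 18.3, 11.6, 16.9 and 0 normalized counts in baseline replicates 1 to 5 and 1159.5 to 3131 (median 2229.7) on day 5. All day 5 libraries were above the baseline, with a log2 difference of 7.34 ± 0.75 (adjusted p = 7.41e-08). Klrg1 (chr6:122270596-122282882) was abundant in both groups, at 17782, 17922, 18025, 15664 and 50175 in culture and 18745, 22019.9, 9908, 5181, 4367 and 4756 in day 5 replicates 1 to 6. The groups overlapped and the difference was not called (-1.31 ± 0.55, adjusted p = 0.074), although it was without day 5 replicate 1 (adjusted p = 0.0392) or replicate 2 (adjusted p = 0.028). The pan-leukocyte gene Ptprc (CD45) was not called either (0.78 ± 0.36, adjusted p = 0.11).

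Gata3 (chr2:9857078-9890034), the lineage regulator of ILC2s, had 191, 203, 139, 534 and 509.7 normalized counts in culture and 1269.8 to 1895 (median 1597) on day 5. It was higher in every day 5 library (2.53 ± 0.63, adjusted p = 0.00335), with a log2 difference of 3.25 in batch 1 and 1.48 in batch 2, and the batch 2 libraries alone did not pass the test (adjusted p = 0.351). Rora, the gene of RORα, rose from 14.9 to 153 to 599.6 to 1772 (4.50 ± 0.76, adjusted p = 6.8e-05; batch 2 alone, adjusted p = 0.112). Bcl11b, a regulator of ILC2 and T cell identity, had means of 1044 ± 94 and 1077 ± 369 (SD, n = 5 and 6) and was not called (-0.04 ± 0.65, adjusted p = 0.994). Id2, which all innate lymphoid cells need, fell by 0.98 on the log2 scale (adjusted p = 0.00692). Its call was lost in batch 1 alone (adjusted p = 0.212), without baseline replicates 4 and 5 (adjusted p = 0.0913) and with equal library totals (adjusted p = 0.0761). The IL-25 receptor gene Il17rb had at most 11.5 normalized counts in culture and was not called (0.47 ± 1.45, adjusted p = 0.865). Il5 and Ptgdr2, the gene of the prostaglandin D2 receptor CRTH2, were under the filter on low values in both groups, and Il13 and Areg were not analysed here.

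Over the ILC2 identity list, 10 of 25 tested genes were higher on day 5 and 5 were lower, against 19.6% and 11.4% of all tested genes. The median log2 difference of the list was 0.76. The rises with the smallest p were in genes that other lymphocytes also express. Tcf7, the gene of the progenitor and memory factor TCF-1, had 56, 5.5, 0, 6.1 and 0 normalized counts in culture and 3579 to 9399.9 (median 7047) on day 5 (10.35 ± 0.77, adjusted p = 6.68e-10). Tox, a factor of innate lymphoid development, had 1 read in culture against 741 to 1109 normalized counts in the day 5 libraries, a ratio of 3544 (95% counting interval 636 to 139999). Ets1 rose by 4.70 ± 0.40 (adjusted p = 4.92e-09). Among the falls, Il2ra (chr2:11642807-11693193), the gene of CD25, went from 14363, 13604, 13451, 13772 and 21066 to 74.8 to 176 (-6.90 ± 0.67, adjusted p = 3.88e-08), and Ly6a (Sca-1) from 29328 to 49869 to 1672 to 4224 (-3.43 ± 0.32, adjusted p = 1.75e-08). Neither group overlapped the other for these genes. In the strip plots of sort, ILC2, NK and recirculation genes, Klrg1 is the gene whose points from culture and day 5 overlap.

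**Figure D1:**
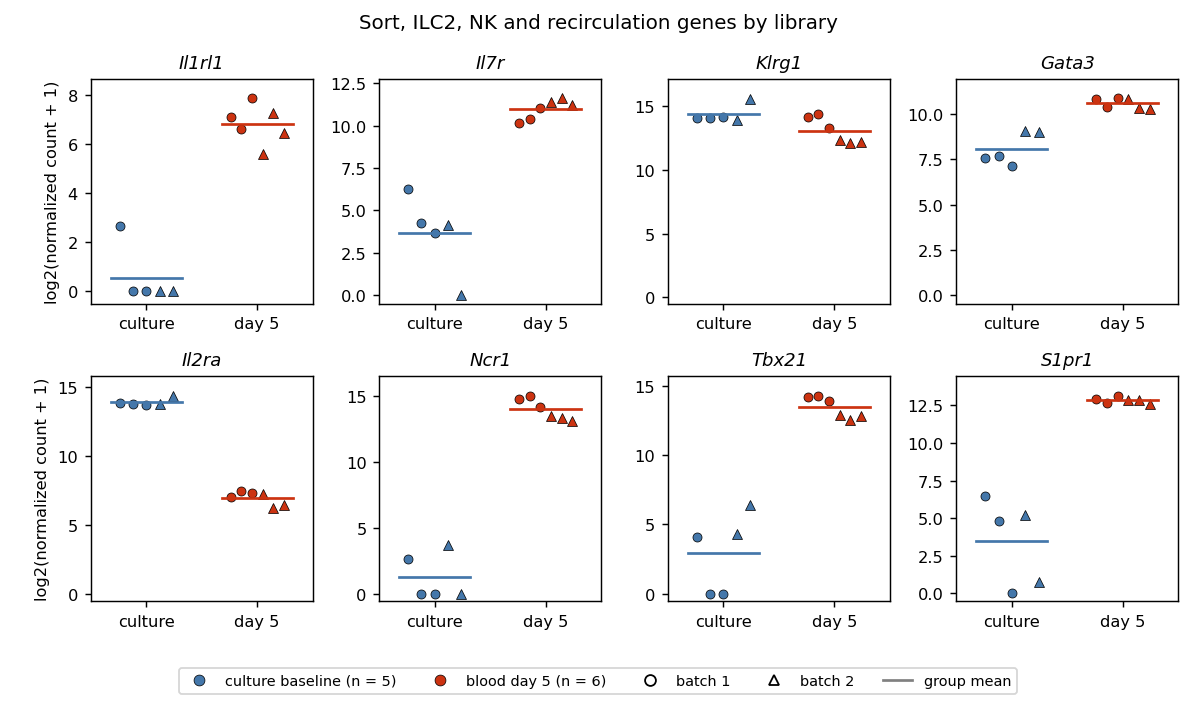
Values of 8 genes by library on a log2(normalized count + 1) axis, culture baseline (blue, n = 5) and blood day 5 (red, n = 6), circles for batch 1, triangles for batch 2 and a line at the group mean of the log values. Il1rl1, Il7r, Gata3, Ncr1, Tbx21 and S1pr1 lie higher in all 6 day 5 libraries than in any baseline library, Il2ra lies lower in all 6, and Klrg1 overlaps.

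Markers of other blood cells were higher on day 5, and their part in the results was not tested unless a value below bears on it. All 21 tested B cell markers were higher (median log2 difference 7.86), and their summed share of a library's normalized total was 0.000708 to 0.0354% in culture and 0.559 to 1.52% on day 5. Cd79a, a signalling chain of the B cell receptor, had 576, 177, 39.6, 404 and 33.2 normalized counts in culture and 9888 to 43609 on day 5 (7.58 ± 0.62, adjusted p = 2.57e-09). Of 17 tested neutrophil markers, 16 were higher, with summed shares of 0.00492 to 0.0363% in culture, 0.364, 0.374 and 0.343% in day 5 replicates 1 to 3, and 1.64, 1.73 and 3.59% in replicates 4 to 6. Ly6g, a defining neutrophil gene, was present in both groups and not called (-1.53 ± 1.18, adjusted p = 0.364). Monocyte and macrophage markers (15 of 18 higher, 0.0266 to 0.126% against 0.276 to 0.352%), dendritic cell markers (13 of 17 higher and 1 lower, 0.0159 to 0.0595% against 0.904 to 2.19%) and mast cell, basophil and eosinophil markers (12 of 20 higher and 1 lower, 0.0126 to 0.0187% against 0.0974 to 0.19%) were also higher on day 5 as sums. The dendritic cell list holds the MHC class II genes Cd74 and H2-Ab1, which are also a mark of B cells. Their day 5 means were 202104 and 68991 normalized counts, so the share of this list is not that of dendritic cells alone. In this bulk RNA, more cells of a type and more of its RNA per cell cannot be told apart.

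Red cell and platelet transcripts differed by batch. Of 11 tested erythroid genes 10 were higher on day 5, with a median log2 difference of 6.34 in batch 1 and 1.74 in batch 2 and summed shares of 0.00787 to 0.446% in culture and 0.321 to 3.95% on day 5. Hba-a1, which has a near-identical copy, had 282, 285, 0, 98916 and 7393 normalized counts in culture, so baseline replicate 4 lay within the day 5 range of 41015 to 628196. Of 18 platelet genes 17 were higher, with 10.71 in batch 1 and 2.89 in batch 2, and 13 of them depended on the batch. Pf4, platelet factor 4, had 18.1, 23.7, 0, 2950.3 and 1049.7 normalized counts in culture and 2692 to 18536 on day 5. T cell markers went both ways, 5 higher and 5 lower of 18, against 19.6% and 11.4% of all tested genes. Their summed shares were 0.49 to 1.29% in culture and 0.245 to 0.352% on day 5. Every B cell, T cell, platelet, erythroid, monocyte and dendritic cell marker in the table had reads in both groups. The markers without a read in culture were Stfa3 of the neutrophil list and Mcpt1, Mcpt2, Mcpt4, Tpsab1, Siglecf, Prg3 and Ear6 of the mast cell, basophil and eosinophil list, and those without a read on day 5 were Mcpt1, Mcpt2 and Tpsab1. Klra8, Hbb-bs, Lyz2 and Ly6c2 were not analysed here.

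**Figure D2:**
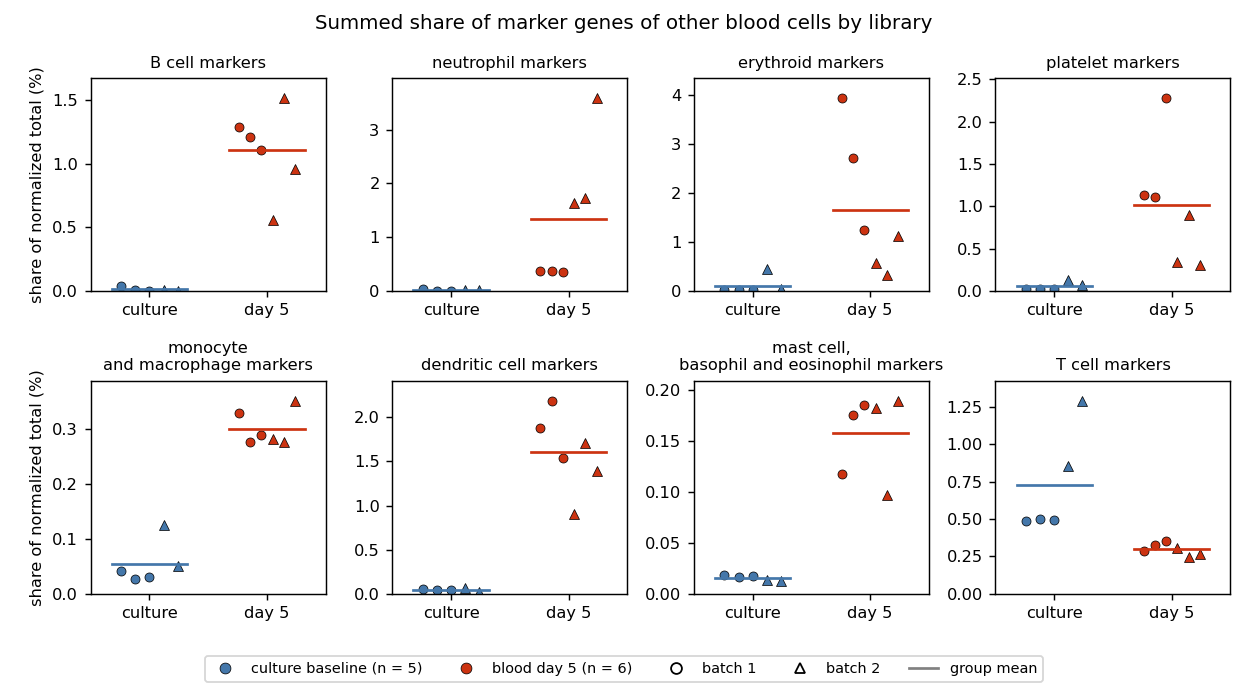
Summed share of marker genes in each library's normalized total (%), 1 panel per cell type, culture baseline (blue, n = 5) and blood day 5 (red, n = 6), circles for batch 1, triangles for batch 2 and lines at the means. B cell shares are 0.559 to 1.52% on day 5 against at most 0.0354% in culture, neutrophil shares are higher in the 3 day 5 libraries of batch 2 than in the 3 of batch 1, and T cell shares are lower on day 5.

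Receptors that define NK cells, and not ILC2s, rose together. Of 24 tested members of the list, 22 were higher on day 5 and 1 was lower, against 19.6% and 11.4% of all tested genes, and the median log2 difference was 8.08, or 7.40 with the 3 genes that had no read in culture set at their lower bound. The summed share of the list was 0.0318 to 0.0767% in culture and 0.638 to 1.1% on day 5. Ncr1 (chr7:4337724-4345164), which encodes the activating receptor NKp46, had 5.4, 0, 0, 12.2 and 0 normalized counts in culture and 27640.5, 32451, 17730, 11055, 10308 and 8646 on day 5. The 2 groups were far apart in every library (12.63 ± 0.71, adjusted p = 1.21e-11). Klrb1c, the gene of NK1.1, was detected in every baseline library, with 235, 241, 252, 146 and 384 normalized counts there and 11270.1 to 21274 on day 5 (6.04 ± 0.53, adjusted p = 8.11e-09). Klrk1, the gene of the activating receptor NKG2D, went from 1.65 to 37.9 to 7285 to 19874 (10.25 ± 0.63, adjusted p = 4.47e-11).

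The Ly49 receptors, which bind MHC class I molecules, and the NKG2 receptors showed the same direction. Klra1 had no read in culture and 919 to 3914 (median 2557) normalized counts on day 5, at least 635-fold higher on a floor of 3 reads per library (at least 449-fold in batch 1). Klra7 had 3 reads in culture, a ratio of 4031 (95% counting interval 1379 to 19546) of day 5 over culture. Ly49 genes are close copies of each other, so reads may be split between them in a way that cannot be checked here. Klrc1, the gene of the inhibitory receptor NKG2A, had 3 reads in culture, a ratio of 2542 (95% counting interval 869.7 to 12329), and 1448 to 2154 normalized counts on day 5. Slamf7 was the member that was lower, at 4667, 4599, 4790.1, 8530.5 and 14149.9 in culture and 3709, 3952, 3369, 1941, 1831 and 1286 on day 5 (-1.42 ± 0.46, adjusted p = 0.0223), and its call was lost without baseline replicate 4 (adjusted p = 0.0545), baseline replicate 5 (adjusted p = 0.0877) or day 5 replicate 6 (adjusted p = 0.056).

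Regulators of type 1 lymphocytes, the group that includes NK cells, moved mostly up, with 15 of 23 higher and 1 lower (median log2 difference 3.07). Tbx21 (chr11:97098071-97115331), which encodes T-bet, had 16.2, 0, 0, 19 and 85 normalized counts in culture and 18506, 19798, 15095, 7624, 5841 and 7369 on day 5 (10.42 ± 0.81, adjusted p = 1.19e-09). It was higher in every day 5 library, with log2 differences of 12.74 in batch 1 and 7.38 in batch 2 (interaction adjusted p = 0.0109). Eomes, the partner of T-bet in mature NK cells, was already at 5385, 6243, 6168, 3359 and 3197 in culture and at 1436 to 3589 on day 5, with overlapping groups and no call (-0.95 ± 0.81, adjusted p = 0.43). The chemokine genes Xcl1 and Ccl4, which activated NK cells secrete, rose: Xcl1 had no read in culture (at least 405-fold higher, 348-fold in batch 1) and Ccl4 went from 1.65 to 14.2 to 1548 to 4101 (8.74 ± 0.56, adjusted p = 6.61e-11). Il12rb1, a chain of the IL-12 receptor, was the member that fell (-2.60 ± 0.30, adjusted p = 5.06e-07). Ifng, the type 1 cytokine, had 3436, 3339, 2963, 612 and 550.3 normalized counts in culture and 326 to 772 on day 5 and was not called (-1.67 ± 0.78, adjusted p = 0.115).

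Granzymes, the serine proteases that perforin delivers into target cells, made up a large part of the cultured transcriptome and fell. The granzyme and lytic granule list took 26.8, 27.4, 27.1, 6.12 and 10.8% of the normalized total in baseline replicates 1 to 5, and 0.95 to 3.33% on day 5. Of 20 tested members 9 were lower and 4 were higher, against 11.4% and 19.6% of all tested genes, so the higher share was near that of all genes. In every day 5 library 10 members were below the baseline, against 9.54% of all tested genes. Gzmb (chr14:56258838-56262260), granzyme B, had 800448, 856956, 851060.1, 396839.5 and 620474 normalized counts in culture and 30978, 33667, 13569.6, 7953, 7738 and 8799 on day 5 (-5.58 ± 0.54, adjusted p = 3.55e-08). Gzma (chr13:113093825-113100981), granzyme A, had 1567765, 1691671, 1620688, 388455 and 1764935 in culture and 214891, 332679, 88276, 53458, 50994 and 53469 on day 5 (-3.64 ± 0.62, adjusted p = 7.17e-05). Both stayed among the detected genes of every day 5 library. Prf1, perforin, fell from 53884 to 265886 to 18704 to 50142 (-2.58 ± 0.68, adjusted p = 0.00513), a call that was lost with baseline replicates 1 to 3 averaged to 1 library (adjusted p = 0.07). Gzmk, granzyme K, fell by 2.37 on the log2 scale (adjusted p = 0.00252; batch 2 alone, adjusted p = 0.0963).

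The granzymes of the chromosome 14 cluster beside Gzmb were nearly gone on day 5. Gzmf (chr14:56205263-56211417) had 2142950.2, 2014999.7, 2096676, 140442 and 84549 normalized counts in culture and 3 reads, all in replicate 5, among the 6 day 5 libraries, a ratio of culture over day 5 of 2420550 (95% counting interval 828269 to 11737500). Gzmd (chr14:56129556-56132608) and Gzme (chr14:56117626-56120625) had no read on day 5, at least 185978-fold and 70574-fold lower than culture (at least 29473-fold and 10408-fold in batch 2). In culture, Gzmf, Gzmd and Gzme were all higher in the batch 1 replicates than in replicates 4 and 5. Gzmn also had no read on day 5 (at least 617-fold lower, 299-fold in batch 1), and Gzmc (chr14:56231441-56234656) went from 111999 to 173627 to 20.3 to 276 (-11.02 ± 0.90, adjusted p = 2.67e-09). These genes are near-identical neighbours, and how the authors' counting split reads between them is not given in the sources used here. In the other direction, Gzmm, granzyme M, which lies on another chromosome, rose from 0 to 38 to 245 to 542 (4.97 ± 0.76, adjusted p = 1.9e-05). Serpinb6b, a protease inhibitor gene, rose by 3.45 ± 0.39 (adjusted p = 2.8e-07).

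**Figure D3:**
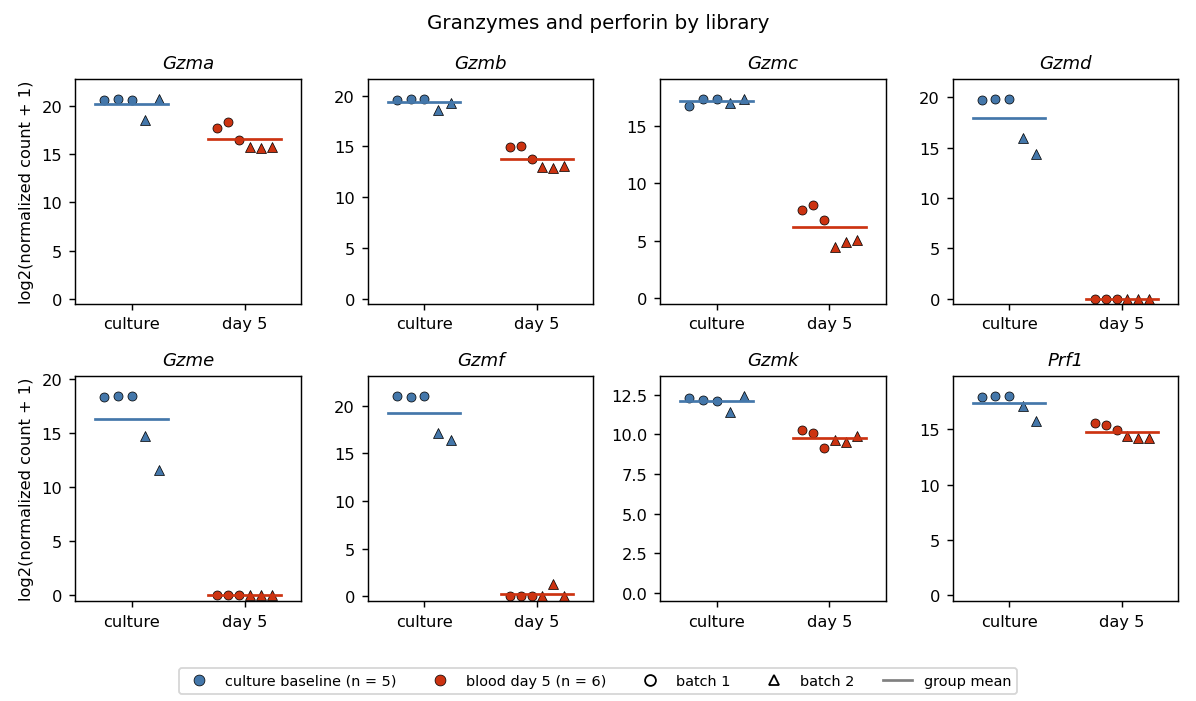
Granzyme and perforin genes by library on a log2(normalized count + 1) axis, culture baseline (blue, n = 5) and blood day 5 (red, n = 6), circles for batch 1, triangles for batch 2 and a line at the mean of the log values. Gzmd and Gzme sit at 0 in all 6 day 5 libraries and Gzmf in 5 of them, while Gzma, Gzmb, Gzmk and Prf1 are lower than in culture in all 6 but not at 0.

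Type 2 effector genes, the products ILC2s are known for, were sparse. Of 23 listed genes 18 were in the table and 12 were tested. On day 5, 3 were higher and 3 lower, against 19.6% and 11.4% of all tested genes. Spp1 (chr5:104435118-104441050), which encodes the secreted phosphoprotein osteopontin, had 137829, 129269, 131215, 378054 and 956221 normalized counts in culture and 479.7, 257, 279.6, 321, 412 and 482 on day 5 (-9.40 ± 0.69, adjusted p = 5.14e-10). The groups were far apart, with no day 5 library near the lowest baseline value. Il10, an anti-inflammatory cytokine, had 57.8, 43.8, 67.7, 405 and 991 in culture and 0 to 21.5 on day 5, with 3 day 5 libraries at 0 (-5.39 ± 1.17, adjusted p = 0.000959; batch 1 alone, adjusted p = 0.0537). Calca, which encodes the peptides calcitonin and CGRP, went from 25.3 to 330 to a single read on day 5, a ratio of culture over day 5 of 1564 (95% counting interval 279.9 to 61838). Il4 was higher in all 6 day 5 libraries, at 28.1, 40.5, 67.9, 156, 67.9 and 192 against 18.1, 7.3, 6.6, 0 and 0 in culture (4.23 ± 0.81, adjusted p = 0.000263), with 2.04 in batch 1 and 7.00 in batch 2 (interaction adjusted p = 0.0224). Batch 1 alone did not pass the test (adjusted p = 0.126). Basophils also express Il4, and the summed share of the list that holds their markers was higher on day 5, as above. Their marker Mcpt8 was not called (log2 difference 1.45, adjusted p = 0.44). The part of basophils in the Il4 values was not tested.

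Growth factors of tissue repair went both ways, 7 higher and 4 lower of 19 tested, against 19.6% and 11.4% of all tested genes. Hbegf, a ligand of the EGF receptor, went from 1215 to 2453 to 0 to 109 (-6.72 ± 1.19, adjusted p = 0.000108). Pdgfb, a chain of platelet-derived growth factor, rose from 0 to 9.03 to 697 to 1192 (7.93 ± 0.57, adjusted p = 4.4e-10), and Csf1, the macrophage growth factor, from 0 to 37.3 to 212 to 764 (4.76 ± 0.76, adjusted p = 3.39e-05). Platelet and monocyte marker shares were higher in the same libraries, and their part in these rises was not tested.

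Genes of the IL-2, IL-7 and IL-15 receptors and of STAT5, the transcription factor they activate, went both ways, with 6 of 24 higher and 6 lower. Of all tested genes 19.6% were higher and 11.4% lower. The receptor chains went in different directions: Il2ra fell and Il7r rose, as given above, while Il2rb, the β chain shared by the IL-2 and IL-15 receptors, went from 28281 to 47508 to 16663 to 31484 (-0.74 ± 0.26, adjusted p = 0.0319), a call lost without any 1 of 6 of the 11 libraries (highest adjusted p = 0.0902). Cish, a feedback inhibitor that STAT5 induces, had 12588, 11626, 12571, 9133 and 3694 normalized counts in culture and 341 to 837 on day 5. All day 5 libraries were below the baseline (-4.18 ± 0.36, adjusted p = 6.65e-09). Socs3, a related inhibitor better known as a target of STAT3, rose by 1.59 ± 0.37 (adjusted p = 0.00194; batch 1 alone, adjusted p = 0.0912), and Pim2, a survival kinase, by 2.34 ± 0.38 (adjusted p = 4.67e-05; batch 2 alone, adjusted p = 0.114). The STAT5 motif TTCNNNGAA (both strands) was in the promoter window, 250 bases before to 50 after the start site, of 6 of the 20 list genes with a RefSeq promoter (30%) and of 8.25% of the 11558 tested genes with one. The Cish promoter is shown because it holds 2 matches, in capitals, within 100 bases (RefSeq, GRCm38.p6, chr9:107296609-107296708, plus strand, 5′ to 3′). The motif was in 2 of the 5 lower and 2 of the 5 higher list genes with a promoter (40% each). A match is a description of the letters, not of binding.
Cish: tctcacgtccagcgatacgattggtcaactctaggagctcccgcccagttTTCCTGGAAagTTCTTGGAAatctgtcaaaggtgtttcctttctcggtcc

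Genes of circulating, quiescent lymphocytes rose, 17 of 23 with none lower (median log2 difference 3.47), and their summed share went from 0.0558 to 0.0987% to 0.609 to 0.743%. Klf2 (chr8:72319033-72321656), the transcription factor that keeps lymphocytes quiescent and recirculating, had 506, 197, 233, 539 and 132 normalized counts in culture and 13321, 13859.7, 14051, 12955, 12091 and 13328 on day 5. Its day 5 values lay within a narrow range, all above the baseline (5.57 ± 0.32, adjusted p = 1.47e-11), with 5.58 in batch 1 and 5.57 in batch 2. S1pr1 (chr3:115710433-115715072), a KLF2 target and the receptor that leads lymphocytes into blood and lymph, went from 0 to 88.5 to 6029 to 9043 (9.37 ± 0.77, adjusted p = 3.06e-09). S1pr5, the receptor by which NK cells leave bone marrow, went from 0 to 25.3 to 4192 to 6535 (10.07 ± 0.63, adjusted p = 4.98e-11), with 8.50 in batch 1 and 12.30 in batch 2 (interaction adjusted p = 0.000448). The difference depended on the batch in 5 of the 23 list members. These genes are also expressed by B cells, T cells, neutrophils or NK cells of the blood. Marker shares were higher on day 5 for these cells except T cells, whose markers went both ways, 5 higher and 5 lower of 18. The part of these cells was not tested.

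The GIMAP family of GTPases, which support survival of resting lymphocytes, was described in full: 7 of 8 members rose. Gimap4 had 130, 38.4, 0, 35.2 and 2.2 normalized counts in culture and 14904 to 21067 on day 5 (10.35 ± 0.83, adjusted p = 2.01e-09). Gimap9, Gimap6, Gimap3, Gimap7, Gimap5 and Gimap1 rose by 6.86, 4.38, 3.56, 2.69, 2.49 and 2.38 on the log2 scale, and Gimap8 was not called (0.93 ± 0.92, adjusted p = 0.504). Gimap6, Gimap5 and Gimap1 differed less in batch 2 than in batch 1 (interaction adjusted p = 0.00415, 0.0428 and 0.0284). The family lies in 1 cluster of similar genes, so reads may be shared.

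Chemokine receptors, which direct cells to tissues, were higher for 17 of 21 tested genes (median log2 difference 6.08). Cxcr3, a receptor of NK and type 1 cells, had 10.8, 9.1, 1.7, 65.1 and 6.6 normalized counts in culture and 2138 to 8703 on day 5 (8.54 ± 0.66, adjusted p = 1.14e-09). Cxcr6 had 0 to 27.1 and 1222 to 6340.1 (8.85 ± 0.98, adjusted p = 2.43e-07). Cx3cr1, the fractalkine receptor of NK cells and monocytes, was detected in every baseline library, at 345, 232, 262, 203 and 179.5, and rose to 2309.9 to 4656 (3.71 ± 0.31, adjusted p = 3.2e-09). Ccr7, the receptor for lymph node entry, rose from 0 to 204 to 9689.9 to 17112 (9.0 ± 1.02, adjusted p = 3.59e-07), and Gpr183, an oxysterol receptor of B cells, dendritic cells and other leukocytes, from 0 to 32.5 to 2189 to 3364 (8.43 ± 0.69, adjusted p = 2.51e-09). Marker shares of B cells, neutrophils and monocytes were higher in the same libraries, as was that of the dendritic cell list, which holds Cd74 and H2-Ab1. The part of these cells was not tested.

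Integrin and adhesion genes were higher for 13 of 25 and lower for 1, against 19.6% and 11.4% of all tested genes. The difference depended on the batch in 7 of the 25, against 8.42% of all tested genes. Itgam, which encodes the CD11b that the donor cells were depleted of and that mature NK and myeloid cells carry, had no read in any baseline library and 9063, 4333, 7755, 4314, 5118 and 3575 normalized counts on day 5, at least 1416-fold higher (1335-fold in batch 1). Emb, the gene of embigin, rose by 6.11 ± 0.43 (adjusted p = 2.77e-10), and Icam2, a ligand of LFA-1, by 7.15 ± 0.78 (adjusted p = 1.84e-07). Itga1, the collagen-binding α1 integrin chain of resident lymphocytes, was lower (-3.07 ± 1.13, adjusted p = 0.0419), a call lost without any 1 of 10 of the 11 libraries (highest adjusted p = 0.111).

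Receptors that restrain or co-stimulate lymphocytes went both ways, 11 higher and 5 lower of 23, against 19.6% and 11.4% of all tested genes. A pair of genes that activation induces fell: Tnfrsf9 (4-1BB) went from 36501, 41127, 40085, 23091 and 42089 in culture to 858 to 2671 on day 5 (-4.66 ± 0.62, adjusted p = 3.39e-06), and Havcr2 (TIM-3) from 14195, 16411, 15998, 16030.3 and 45247 to 86.7 to 407 (-6.91 ± 1.09, adjusted p = 2.9e-05). Neither overlapped between groups. Cd27, a co-stimulatory receptor of resting lymphocytes, rose from 1.48 to 41.5 to 1963 to 2912 (7.35 ± 0.63, adjusted p = 4.86e-09), Cd160, an NK receptor, by 6.38 ± 0.69 (adjusted p = 1.57e-07), and Tnfrsf25 (DR3), the receptor of the ILC2 stimulus TL1A, by 7.46 ± 0.99 (adjusted p = 3.2e-06).

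Components of the T cell receptor pathway, parts of which innate lymphocytes share, split into 11 higher and 8 lower of 24. Of all tested genes 19.6% were higher and 11.4% lower. Lck (chr4:129548344-129573641), the first kinase of the pathway, had 93.9, 42, 0, 131 and 2.2 normalized counts in culture and 38719.8, 49697, 36109, 26895, 18621 and 22461 on day 5 (10.74 ± 0.88, adjusted p = 2.67e-09). Skap1, an adaptor downstream of it, rose by 9.30 ± 0.42 (adjusted p = 6.03e-13). The CD3 chains went the other way. Cd3d had 18614, 19238, 19974, 43049 and 44958 in culture and 2849 to 4443 on day 5 (-2.88 ± 0.41, adjusted p = 8.8e-06). Cd3g had 45714, 49725, 48049.7, 80084 and 221732 and 3099.9 to 8375 (-3.96 ± 0.73, adjusted p = 0.000165; batch 1 alone, adjusted p = 0.0501). Cd3e, the CD3ε that the donor cells were depleted of on the surface, had 4847, 4968, 5431, 19428 and 8259.5 in culture and 1594 to 4249 on day 5 (-1.52 ± 0.55, adjusted p = 0.0388), a call lost without any 1 of 6 of the 11 libraries (highest adjusted p = 0.134). The constant region genes of the αβ receptor, Trac and Trbc2, were not called (-0.58 ± 0.73, adjusted p = 0.615, and 0.44 ± 0.32, adjusted p = 0.344), with 4575 to 16923 normalized counts of Trac in culture. Thy1, a surface protein of T cells and ILC2s, fell by 4.89 on the log2 scale (adjusted p = 1.84e-05), and the co-receptor gene Cd4 rose from 0 to 25.3 to 492 to 2866 (8.55 ± 0.75, adjusted p = 7.95e-09).

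Type 3 lymphoid genes, those of lymphoid tissue inducers and IL-17 or IL-22 producers, were higher for 9 of 11 tested genes and lower for 1 (median log2 difference 6.27, or 5.35 with 2 genes at their bound). The members with the smallest p are not specific to these cells. Ltb, the gene of lymphotoxin β, rose from 217, 62.1, 1.7, 196 and 53.2 to 6275 to 14165 (7.67 ± 0.82, adjusted p = 1.46e-07), and B cells also express it. The membrane protein genes Tmem176a and Tmem176b, known in dendritic and type 3 cells, rose by 6.27 ± 0.68 and 5.35 ± 0.47 (adjusted p = 2.03e-07 and 7.02e-09). Batf, an AP-1 factor, fell by 1.26 on the log2 scale (adjusted p = 0.00648). Its call was lost in batch 1 alone (adjusted p = 0.0963), in batch 2 alone (adjusted p = 0.0569), without baseline replicates 4 and 5 (adjusted p = 0.0888) and with equal library totals (adjusted p = 0.075).

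Immediate early and NF-κB response genes were higher for 21 of 37 tested and lower for 6 (median log2 difference 1.91), and 9 depended on the batch. Fos (chr12:85473890-85477273), a subunit of the transcription factor AP-1, had 426, 149.8, 154, 40 and 149 normalized counts in culture and 10826, 10974, 9210.1, 9524, 4768 and 16136 on day 5 (6.08 ± 0.44, adjusted p = 4.45e-10). Zfp36, which encodes an RNA-destabilizing protein, rose by 3.95 ± 0.34 (adjusted p = 6.83e-09). Nfkbia, the inhibitor of NF-κB, rose more in batch 1 (5.01 in batch 1 and 1.89 in batch 2; interaction adjusted p = 0.000445). Jun, the partner of Fos, went the other way, from 3789, 3766, 4155, 7973 and 3674 to 664 to 1466 (-2.17 ± 0.29, adjusted p = 3.17e-06), as did the activation-induced repressor gene Bhlhe40 (-2.20 ± 0.24, adjusted p = 1.8e-07). The cyclic AMP response element TGACGTCA, to which CREB and ATF factors bind, was in the promoter window of 5 of 29 list genes (17.2%) and of 3.44% of the tested genes with a promoter. A fixed form of the serum response element (a CArG box) was in none of the 29. It was in only 4 of the 11558 tested genes with a promoter (0.0346%), too few for its absence to tell the list apart. The Dusp1 promoter is shown because Dusp1, which encodes a phosphatase that switches off MAP kinases, was higher on day 5 than on day 1 as well (RefSeq, GRCm38.p6, chr17:26508558-26508665, minus strand, motif in capitals).
Dusp1: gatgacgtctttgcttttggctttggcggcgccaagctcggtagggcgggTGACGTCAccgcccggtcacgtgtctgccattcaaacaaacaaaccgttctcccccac

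Day 5 was compared with day 1 directly, since both blood groups share the culture baseline. Of 15268 genes, 15 were higher on day 5 (0.0982%) and 1 was lower (0.00655%) by limma, with 1167 genes at an unadjusted p under 0.05. Without blood day 1 replicates 2 and 6, which stood apart, 8 were higher and 4 lower, and the count of higher genes was 6 without day 1 replicate 5 and 9 without day 5 replicate 6. Dusp1 (chr17:26505590-26562128) had 1466, 1293, 1428, 7185 and 2374 normalized counts in culture, 966 to 4058 on day 1 and 35737, 46799.5, 29055, 28832, 12216 and 47072 on day 5. Every day 5 library was above every day 1 and every baseline library (log2 difference between the days 3.90 ± 0.47, adjusted p = 0.000446). Fos had 40 to 426 in culture, 1175 to 2509.8 on day 1 and 4768 to 16136 on day 5 (day 5 minus day 1, 2.35 ± 0.42, adjusted p = 0.0172). Junb, another AP-1 gene, had 2500.5 to 10618, 3707 to 10112 and 12348 to 38543 in the same order (1.94 ± 0.35, adjusted p = 0.0183). The day 5 range did not overlap the day 1 range for either gene. Over 29 alternative settings the call held in 29 for Dusp1, 22 for Fos and 20 for Junb, and leaving out 1 library ended it for Fos without day 1 replicate 5 or day 5 replicate 6 (highest adjusted p = 0.0643) and for Junb without day 1 replicates 4 or 5 or day 5 replicates 1, 2 or 6 (highest adjusted p = 0.0758).

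Of the neutrophil markers 1 of 17 (Il1b) was higher on day 5 than on day 1, and of the monocyte and macrophage markers 1 of 18 (Cd14). Il1b, the inflammatory cytokine IL-1β, had 23.5, 67.6, 19.8, 0 and 0 normalized counts in culture, 144 to 408 on day 1 and 3406, 3063, 3154, 5799, 6706 and 8606 on day 5 (day 5 minus day 1, 4.52 ± 0.75, adjusted p = 0.0117). Cxcl2, a neutrophil-attracting chemokine, had 0 to 34.1 on day 1 and 268, 249.9, 216, 2099.6, 156 and 2553 on day 5 (7.43 ± 0.98, adjusted p = 0.00108). Steap4, a metalloreductase gene, had 0 to 55.2 and 323, 272, 302, 4747, 2745 and 5464 (6.95 ± 1.04, adjusted p = 0.00382). Cd14, the lipopolysaccharide co-receptor of monocytes, had 144 to 867 and 1078 to 4778 (2.95 ± 0.47, adjusted p = 0.00666). For Il1b and Steap4 all 3 day 5 libraries of batch 2 were above the 3 of batch 1. The neutrophil marker share ran the same way, as given above, and was 0.0956 to 0.704% on day 1, while S100a8, an abundant neutrophil gene, had 16108, 16844, 15125, 64491, 55955 and 214549 normalized counts in day 5 replicates 1 to 6. Its part in these differences was not tested. Within batch 1 alone the day difference was not called for Cxcl2 (adjusted p = 0.517), Steap4 (0.332) or Cd14 (0.378), and that of Il1b was not without blood day 1 replicates 2 and 6 (adjusted p = 0.0586). The other genes higher on day 5 than on day 1 were Dmxl2, Jam3, Irs2, Amer2, Trnp1, Mir7678, Foxd4 and Myl2, by 1.85 (Irs2) to 6.20 (Foxd4) on the log2 scale, and D630024D03Rik was lower (-5.11 ± 0.92, adjusted p = 0.0183). Of these 9 calls only that of Myl2 held with each of 12 libraries left out in turn. Irs2 and Trnp1 held without 11 of the 12, Mir7678 without 10, D630024D03Rik without 8, Dmxl2 without 7, Foxd4 without 5 and Jam3 and Amer2 without 3 (highest adjusted p = 0.13, for Amer2).

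**Figure D4:**
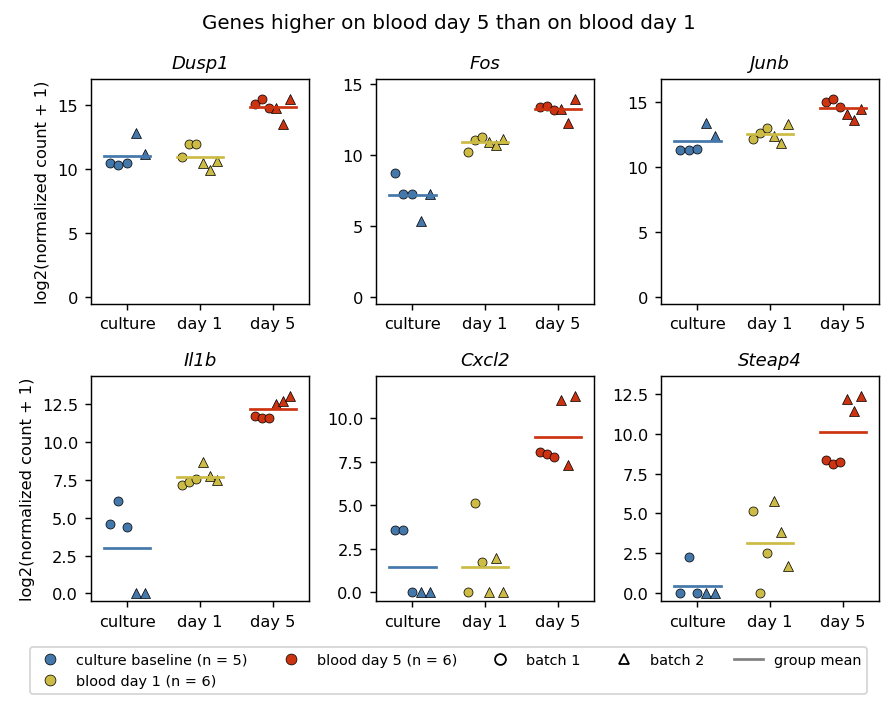
Genes that were higher on blood day 5 than on day 1, by library on a log2(normalized count + 1) axis, culture baseline (blue, n = 5), blood day 1 (yellow, n = 6) and blood day 5 (red, n = 6), circles for batch 1, triangles for batch 2 and lines at the mean of the log values. The 6 day 5 points lie above the 6 day 1 points for each gene, and those of Il1b and Steap4 are highest in batch 2.

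Interferon-stimulated genes, the antiviral response set, were higher for 22 of 44 and lower for 1 (median log2 difference 1.26). Ifit1, an inhibitor of viral translation, had 9, 1.8, 0, 0 and 0 normalized counts in culture and 254 to 777 on day 5 (7.96 ± 0.79, adjusted p = 5e-08). Irf9, a subunit of the transcription factor that type I interferon activates, rose in both batches by a like amount (2.42 ± 0.25, adjusted p = 6.08e-08; 2.43 in batch 1 and 2.45 in batch 2). Usp18, which dampens the interferon receptor, rose by 5.37 ± 0.54 (adjusted p = 5.22e-08) and Rtp4 by 6.17 ± 0.47 (adjusted p = 8.78e-10). Bst2 (tetherin), which retains virions at the membrane, went from 1447 to 3095 down to 771 to 1125 (-1.33 ± 0.25, adjusted p = 0.000197; batch 2 alone, adjusted p = 0.0927).

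Proliferation genes differed by batch. In the S phase list no gene was higher and 6 of 37 were lower, with a median log2 difference of -1.76 in batch 1 and 1.12 in batch 2, and in the G2 and M phase list 1 was higher and 5 of 42 lower, with -1.80 and 1.57. The lower shares of both lists are near the 11.4% of all tested genes. The batch interaction was called for 13 and 17 of these genes, against 8.42% of all tested genes. Without baseline replicate 1, 2 or 3, 2 S phase and 2 G2 and M phase genes were lower. Without day 5 replicate 1 or 6, 3 S phase genes were lower, and 3 G2 and M phase genes without day 5 replicate 1 or 3, 2 without day 5 replicate 6 and 8 without baseline replicate 4. Mki67, the gene of the proliferation antigen Ki-67, had 3242, 3156, 3194, 77.2 and 1108 normalized counts in culture and 228, 376, 246, 316, 1209 and 1418 on day 5. The groups overlapped and it was not called (-1.40 ± 1.29, adjusted p = 0.463), with -3.53 in batch 1 and 1.47 in batch 2. Pcna, the sliding clamp of replication, was lower in every day 5 library, at 16296, 17326, 17619, 4199.8 and 9402 in culture and 2549 to 3305 on day 5 (-1.98 ± 0.33, adjusted p = 5.22e-05; batch 2 alone, adjusted p = 0.119). Cdc25b, a phosphatase of mitotic entry, was the G2 and M phase gene that rose (2.23 ± 0.41, adjusted p = 0.000174).

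Ribosomal protein genes fell together: 69 of 75 tested were lower and none was higher, with a median log2 difference of -2.05 (-2.60 in batch 1 and -1.38 in batch 2). They took 2.65 to 5.51% of the normalized total in culture and 0.951 to 2.02% on day 5. Of the 75, 45 were below the baseline in every day 5 library, against 9.54% of all tested genes. Rpl39, a small protein of the large subunit, had 12846, 12670.4, 12238, 4554 and 26093 normalized counts in culture and 313 to 994 on day 5 (-4.60 ± 0.46, adjusted p = 4.59e-08). Rpl23 went from 26076, 29832, 28498, 8387 and 32279 to 1186 to 2671 (-3.69 ± 0.37, adjusted p = 4.67e-08) and Rpl38 from 7060.5, 7796, 7604, 8224 and 15403 to 594 to 1159.6 (-3.59 ± 0.25, adjusted p = 2.77e-10). Ribosomal protein genes have many processed copies, and how reads shared with them were counted is not given in the sources used here. Nuclear genes of oxidative phosphorylation fell less, with 21 of 75 lower and 2 higher (median -0.64), against 11.4% and 19.6% of all tested genes. Atp5g2, a gene of the c subunit of ATP synthase, fell by 1.74 on the log2 scale (adjusted p = 7.27e-06). Ndufa4 rose by 2.02 ± 0.49 (adjusted p = 0.00277; batch 2 alone, adjusted p = 0.342).

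Amino acid synthesis and transport genes and other targets of ATF4, the transcription factor of the amino acid response, fell: 28 of 39 tested were lower and none was higher (median log2 difference -1.71). Of the 39, 24 were below the baseline in every day 5 library, against 9.54% of all tested genes. Asns, asparagine synthetase, had 10018, 9817, 8737, 7944 and 6322 normalized counts in culture and 69.5, 29.3, 159.5, 196, 101 and 333 on day 5 (-6.19 ± 0.65, adjusted p = 1.1e-07). Slc7a5, the large neutral amino acid transporter, went from 16522, 16181, 16843, 9017 and 2799 to 261 to 1185 (-4.32 ± 0.50, adjusted p = 4.46e-07), and Mthfd2, of mitochondrial one-carbon metabolism, from 3462 to 6084 to 489 to 759.8 (-3.02 ± 0.23, adjusted p = 8.46e-10). Slc7a3, a transporter of cationic amino acids, had no read in 4 of the 6 day 5 libraries against 423 to 1476 normalized counts in culture. Atf4 itself had 12124, 11801, 12145, 11936 and 5289.9 in culture and 1649.9 to 2385 on day 5 (-2.42 ± 0.33, adjusted p = 4.86e-06). The element TGATGNAA, to which ATF4 and C/EBP dimers bind, was found on either strand in 8 of the 23 lower genes of the list with a promoter (34.8%), in 9 of all 30 (30%) and in 331 of the 11558 tested genes with a promoter (2.86%). Matching promoters are shown for Asns, for Pycr1, a proline synthesis enzyme (-7.06 ± 1.08, adjusted p = 2.08e-05), for Trib3, an ATF4 feedback inhibitor (-6.45 ± 1.01, adjusted p = 2.57e-05), and for Gars, glycyl-tRNA synthetase (-1.34 ± 0.18, adjusted p = 4.5e-06). They are from RefSeq, GRCm38.p6, 5′ to 3′ on the gene's strand, with the element in capitals: Asns chr6:7693175-7693282, minus strand, Pycr1 chr11:120643794-120643901, minus strand, Trib3 chr2:152344011-152344096, minus strand and Gars chr6:55037921-55038028, plus strand.
Asns: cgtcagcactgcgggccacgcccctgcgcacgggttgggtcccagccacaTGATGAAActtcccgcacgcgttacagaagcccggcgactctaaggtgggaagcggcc
Pycr1: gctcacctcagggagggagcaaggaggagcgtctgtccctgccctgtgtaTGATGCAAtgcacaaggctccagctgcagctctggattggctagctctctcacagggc
Trib3: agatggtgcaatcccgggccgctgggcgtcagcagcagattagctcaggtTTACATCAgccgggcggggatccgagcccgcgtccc
Gars: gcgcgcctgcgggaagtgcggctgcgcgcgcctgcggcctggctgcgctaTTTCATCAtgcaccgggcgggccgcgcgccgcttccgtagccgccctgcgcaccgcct

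Cholesterol and glycolysis genes were lower in part, and fatty acid synthesis genes went both ways. In the cholesterol biosynthesis list 10 of 23 fell and none rose (median -1.52). Hmgcs1, the synthase at the entry of the pathway, had 7182, 7357, 6948, 2691 and 7223 normalized counts in culture and 465 to 835 on day 5 (-3.31 ± 0.34, adjusted p = 8.92e-08). Sqle, squalene epoxidase, fell by 2.39 on the log2 scale (adjusted p = 2.39e-05). The sterol element TCACNCCAC, to which SREBP binds, was in the promoter window of 1 of 16 of these genes (6.25%) and of 1.5% of all tested genes with a promoter. Of 16 fatty acid synthesis genes 2 were higher and 4 lower, against 19.6% and 11.4% of all tested genes. Their median log2 difference was -0.22, with -1.08 in batch 1 and 0.54 in batch 2. Of 16 glycolysis genes 9 were lower and 1 was higher. Ldha, the lactate dehydrogenase subunit of glycolytic cells, had 55798, 60602, 60934, 101004 and 97942 in culture and 14695 to 22462 on day 5 (-1.89 ± 0.29, adjusted p = 2.09e-05), while Ldhb, the other subunit, rose from 11.6 to 82 to 277 to 653 (4.32 ± 0.51, adjusted p = 5.63e-07). Slc2a1, the glucose transporter GLUT1, fell by 2.0 on the log2 scale (adjusted p = 2.03e-06).

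Targets of hypoxia-inducible factor were lower for 9 of 21 and higher for 1 (median -2.0). Egln3, a prolyl hydroxylase of the factor and also its target, had 10671, 10413, 10524, 9268 and 6750.3 normalized counts in culture and 91, 105, 93.2, 269, 161 and 189 on day 5 (-6.07 ± 0.35, adjusted p = 1.21e-11). Ero1l, an oxidase of the endoplasmic reticulum, went from 10129.9 to 23836 to 406 to 503 (-4.90 ± 0.31, adjusted p = 6.61e-11), and Bnip3, a mitophagy receptor, from 4410.5 to 19401 to 297 to 536 (-4.18 ± 0.41, adjusted p = 4.31e-08). Its relative Bnip3l, which red cell precursors need to clear mitochondria, rose (1.95 ± 0.49, adjusted p = 0.00352; batch 2 alone, adjusted p = 0.54), with 3.08 in batch 1 and 0.48 in batch 2, and erythroid markers were higher in the same batch 1 libraries. The part of red cells in the Bnip3l values was not tested. Chaperone genes fell too, 15 of 30 with 2 higher. Hsp90b1, the chaperone GRP94 of the endoplasmic reticulum, went from 19487 to 33302 to 4389 to 5963 (-2.43 ± 0.35, adjusted p = 7.9e-06). Hspe1, a mitochondrial chaperonin, fell by 2.13 on the log2 scale (adjusted p = 7.42e-06; batch 2 alone, adjusted p = 0.0698).

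The BCL2 family holds genes that prevent cell death and genes that promote it. Of 16 tested, 1 was higher and 4 were lower, against 19.6% and 11.4% of all tested genes. Mcl1, a short-lived survival protein of lymphocytes, rose from 3932, 3618, 3719, 1563 and 3762 to 5530.5 to 13673 (1.5 ± 0.34, adjusted p = 0.0013; batch 1 alone, adjusted p = 0.111). Bcl2, the survival gene among the 4, went from 5918, 6307, 6185, 6777 and 5689 to 1831 to 4333 (-1.32 ± 0.38, adjusted p = 0.00992). Its call was lost with equal library totals (adjusted p = 0.116) and in batch 1 alone (adjusted p = 0.125). Neither overlapped between groups. The other 3 are genes that promote cell death. Pmaip1 (NOXA) went from 1294, 1289.5, 1229.7, 1359 and 4206 to 404 to 824 (-1.53 ± 0.38, adjusted p = 0.00317; batch 1 alone, adjusted p = 0.0662). Bak1 went from 933, 1059, 1045, 457 and 89.4 to 13.2 to 421 (-3.01 ± 0.93, adjusted p = 0.0159), with overlapping groups and -5.26 in batch 1 and -0.12 in batch 2 (interaction adjusted p = 0.0343). Its call was lost without baseline replicate 2 (adjusted p = 0.05) and with baseline replicates 1 to 3 averaged (adjusted p = 0.179). Bik went from 46.9, 69.4, 56.1, 146 and 73.9 to 0 to 33.8 (-2.81 ± 0.99, adjusted p = 0.0347), a call lost without any 1 of 6 of the 11 libraries (highest adjusted p = 0.0899).

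MHC class II genes, which present antigen to CD4 T cells and are a mark of B cells and dendritic cells, rose for all 9 tested members (median log2 difference 6.93). Cd74, the invariant chain, had 3546, 1074, 487, 4789 and 391 normalized counts in culture and 252923, 304735, 217315, 88975, 193775 and 154900.3 on day 5 (7.20 ± 0.54, adjusted p = 8.66e-10). H2-Ab1 had 1334, 495, 185, 1785 and 115 and 37941 to 96294 (7.12 ± 0.55, adjusted p = 1.01e-09). The summed share of the class II genes was 0.00228 to 0.0336% in culture and 1.01 to 2.34% on day 5, and that of the B cell markers 0.000708 to 0.0354% and 0.559 to 1.52%. The lowest Cd74 and Cd79a values on day 5 were both in replicate 4, while the class II share was highest in replicate 2 and the B cell share in replicate 5. The part of B cells and dendritic cells in these values was not tested. Of 17 MHC class I and peptide loading genes 2 were higher and 3 lower, near the 19.6% and 11.4% of all tested genes. Tapbpl, a peptide editor, rose by 1.45 ± 0.28 (adjusted p = 0.000346; batch 2 alone, adjusted p = 0.359). Calr, the chaperone calreticulin, fell by 2.16 on the log2 scale (adjusted p = 1.16e-05; batch 2 alone, adjusted p = 0.0634).

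Among the largest rises by the naming rule were 2 mast cell and basophil proteases and a milk-clotting enzyme. Cym, which encodes chymosin, had no read in culture and 6284, 8245, 4587, 1649, 1017 and 1697 normalized counts on day 5, at least 974-fold higher (685-fold in batch 2). Prss34 had 18.1, 0, 0, 28.5 and 0 in culture and 3699 to 12513 on day 5 (11.10 ± 1.98, adjusted p = 0.000119), and Cma1, a chymase, 0, 1.8, 0, 5.4 and 0 and 9968, 13856, 4293, 1512, 1294 and 1408 (10.88 ± 0.90, adjusted p = 3.02e-09). Cym and Cma1 were both higher in the day 5 libraries of batch 1 than in those of batch 2. Cpa3 and Mcpt8, other defining genes of these cells, were not called (1.38 ± 1.29, adjusted p = 0.476, and 1.45 ± 1.27, adjusted p = 0.44). Slc6a4, the serotonin transporter of platelets, was another large rise, at 15590.2, 11182, 34272, 369, 815 and 453 on day 5 against 0 in 4 baseline libraries and 33.9 in replicate 4 (10.68 ± 1.48, adjusted p = 5.93e-06). It differed more in batch 1, as the platelet markers did (interaction adjusted p = 0.0184).

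The largest falls outside the granzymes were genes of secreted milk, tooth and epididymis proteins that were well expressed in culture. The casein genes Csn2, Csn3 and Csn1s1 had 13738, 11218, 12837, 2041 and 1046, 5844, 4886, 5728, 5005 and 8147 and 38917, 35644, 37477, 2975 and 1751 normalized counts in baseline replicates 1 to 5 and no read on day 5. On the floor of 3 reads per library they were at least 2705-fold, 1959-fold and 7726-fold lower (in batch 2 at least 1090.3-fold for Csn2 and 1669-fold for Csn1s1, and in batch 1 at least 1185-fold for Csn3). Caseins are known STAT5 targets in mammary gland. Ambn, the enamel protein ameloblastin, had 49324, 45383, 45354, 5979 and 3236 in culture and no read on day 5, at least 9878-fold lower (3255-fold in batch 2), as had Dsc2, a desmosomal cadherin (at least 8329-fold lower, 5975-fold in batch 1). Crisp1, of the epididymis, had 55091, 49142, 45722, 1393 and 11778 in culture and 1 day 5 library above 0. Csn2, Csn1s1, Ambn and Crisp1 were higher in the 3 baseline libraries of batch 1 than in replicates 4 and 5. Lgals3, which encodes galectin-3, fell from 47212, 56262, 56289.6, 459412 and 177648 to 5119 to 11279 (-3.78 ± 0.56, adjusted p = 1.43e-05).

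**Figure D5:**
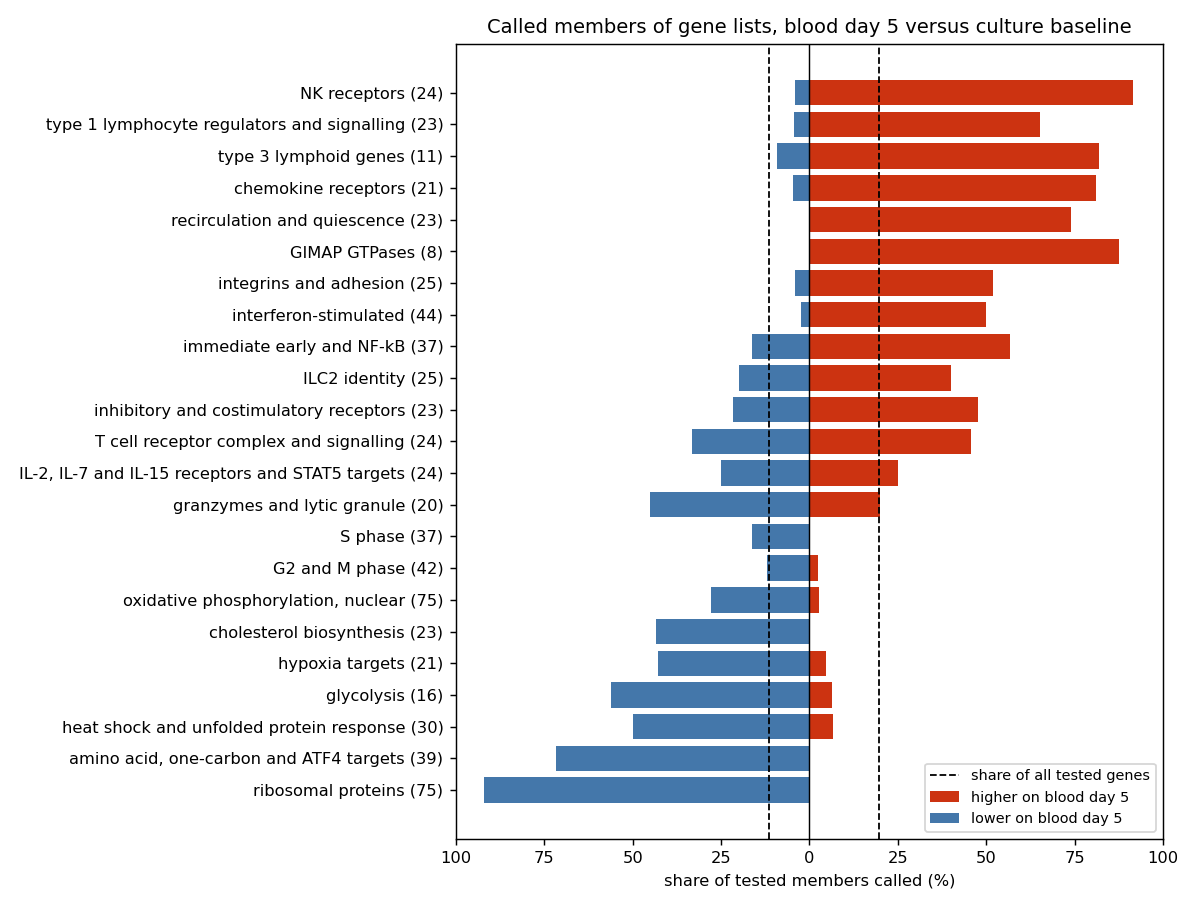
Share of tested members (%) called higher (red, to the right) or lower (blue, to the left) on blood day 5 against the culture baseline for 23 gene lists, with the number tested in parentheses and dashed lines at the shares of all tested genes (19.6% higher, 11.4% lower). NK receptors, chemokine receptors, recirculation genes and GIMAP genes lie far to the right, ribosomal protein and amino acid genes far to the left, and the S phase list has no rise and 6 of 37 falls.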

How the data were processed

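Poly-T selected RNA was primed with random hexamers and sequenced in pairs of 150 bp reads, per the labels' protocols. The submitters' processing notes name fastp, HISAT2 2.0.5 and mm10. The sources used here do not give the counting tool, annotation, strand setting or gene filter, so overlapping or antisense genes cannot be told apart. The deposited table lists 19945 genes in what the authors call normalized counts (a scaled signal), each a whole number of reads times 1 factor per library (100% of values whole within 0.1 read, largest deviation 0.001).

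Coordinates come from GENCODE M21, in which 19931 symbols were found. The filter kept 15268 genes, those whose value reached 10 in 5 or more of the 23 libraries. The main test was limma 3.58.1 in R 4.3.3 (trend and robust) on log2(value + 1) with 4 groups and the batch, over all 23 libraries, two-sided, Benjamini-Hochberg adjusted over all tested genes, threshold 0.05. Within-batch values are differences of group means of the log2 values. Against a group with no read, a floor of 3 reads per library gives a lower bound, and with 1 to 3 reads in a group the ratio of read rates has an exact 95% interval. Both cover counting error only. Alternatives were edgeR 4.0.16 and DESeq2 1.42.0 on the recovered reads, other scalings, filters, pseudocounts, weights and batch terms, and left-out libraries. The fit was tested on simulated data.

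The text names the 10 largest called rises and falls (the higher mean reaching 100, same sign in both batches, no predicted genes), every member of lists of at most 10 genes, up to 4 called members per list in its main direction and 2 in the other, fixed genes of the sort and lineage, the 6 largest differences between the blood days and the most abundant gene per library. Pycr1, Trib3, Gars, Atf4, Gzmk, Junb, Cd14, Cd3g, Trac, Trbc2, Klrb1c, Ccr7, Pf4, Ly6g, Il17rb, Cpa3, Mcpt8, Jam3, Amer2, Trnp1, Mir7678, Myl2, Irs2 and D630024D03Rik were added after their values were seen. The comparison and all gene lists were chosen with earlier results of these data known. Brain libraries entered only the shared fit. Some genes that this rule names are not reported here.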

Additional observations from a re-analysis of the deposited data

Results flagged for a closer look

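Single libraries stood far from the rest of their own group in 59 of 388 sets of values tested, by the gap of the highest or lowest library to its neighbour over the range of the group. Chance gives about 1 in 20 where values are spread normally. A group with reads in only 1 library is always flagged, as for Il1rl1 and Tox in culture and Calca and Gzmf on day 5. The 59 therefore include flags that the rule itself sets. Values are normalized counts, with the gap taken on the log2 scale. Baseline replicate 1 stood above the rest of its group for Il1rl1 (5.4), Tox (1.8) and Klra7 (5.4). Baseline replicate 2 stood above the rest of its group for Steap4 (3.7). Baseline replicate 4 stood above the rest of its group for Klrc1 (2), Gimap1 (3171), Jun (7973), Bhlhe40 (22899.9) and Slc6a4 (33.9). Baseline replicate 4 stood below the rest of its group for Gzma (388455), Tnfrsf9 (23091), Mki67 (77.2), Rpl23 (8387), Hmgcs1 (2691), Sqle (1152), Hsp90b1 (19487), Hspe1 (831) and Mcl1 (1563). Baseline replicate 5 stood above the rest of its group for Klrg1 (50175), Id2 (53645), Il2ra (21066), Itga1 (4469), Havcr2 (45247), Trbc2 (13841), Rpl38 (15403), Ndufa4 (2679) and Pmaip1 (4206). Baseline replicate 5 stood below the rest of its group for Csf1 (0), Il2rb (28281), Cish (3694) and Atf4 (5289.9). Day 5 replicate 1 stood above the rest of its group for Calca (1.7). Day 5 replicate 2 stood above the rest of its group for Rtp4 (1574). Day 5 replicate 2 stood below the rest of its group for Bcl11b (422). Day 5 replicate 3 stood above the rest of its group for Tox (1109), Xcl1 (2557) and Slc7a3 (20.5). Day 5 replicate 3 stood below the rest of its group for Klra1 (919) and Gzmm (245). Day 5 replicate 4 stood below the rest of its group for Ly6a (1672). Day 5 replicate 5 stood above the rest of its group for Gzmf (1.4). Day 5 replicate 5 stood below the rest of its group for Dusp1 (12216). Day 5 replicate 6 stood above the rest of its group for Rpl38 (1159.6) and Crisp1 (2.9). Day 5 replicate 6 stood below the rest of its group for Gimap4 (14904).

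By summed share of the normalized total, baseline replicate 1 stood above its group for B cell markers (0.0354%) and neutrophil markers (0.0363%). By summed share of the normalized total, baseline replicate 4 stood above its group for type 1 lymphocyte regulators and signalling (0.36%), type 3 lymphoid genes (0.0204%), recirculation and quiescence (0.0987%), immediate early and NF-kB (0.562%), glycolysis (3.14%), BCL2 family (0.124%), MHC class I and peptide loading (2.83%), erythroid markers (0.446%) and monocyte and macrophage markers (0.126%). By summed share of the normalized total, baseline replicate 5 stood above its group for ILC2 identity (0.886%). By summed share of the normalized total, baseline replicate 5 stood below its group for amino acid, one-carbon and ATF4 targets (0.416%). By summed share of the normalized total, day 5 replicate 3 stood above its group for hypoxia targets (0.178%).

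The blood days differed by a direct test, as log2 day 5 minus day 1, for Fos (2.35), Dusp1 (3.90), Junb (1.94), Il1b (4.52), Cxcl2 (7.43), Steap4 (6.95), Cd14 (2.95), Irs2 (1.85), Foxd4 (6.20), D630024D03Rik (-5.11), Dmxl2 (6.12), Jam3 (4.01), Amer2 (3.70), Trnp1 (4.40), Mir7678 (3.93), Myl2 (4.43). These differences rest on the comparison in the report and no explanation was tested.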

How the results depend on the processing

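Of 151 named genes that passed the test, 121 passed under all 29 alternatives and 30 lost the call under at least 1, and of 15 that did not, 10 passed under at least 1. None reversed. Fitting batch 2 alone left 1099 genes lower on day 5 than in culture, equal library totals left 1154 and quality weights gave 4500, while quality weights gave 5133 higher. Leaving out 1 library gave 2704 to 3065 higher and 1490 to 1811 lower. Averaging baseline replicates 1 to 3 gave 2490 and 1281, and leaving out baseline replicates 4 and 5, chosen after seeing the data, 2864 and 2044. Of calls higher, the share was 63.2%, 76% with equal totals and 53.3% with quality weights. For day 5 over day 1, higher genes numbered 7 in batch 1, 67 in batch 2, 6 without brain libraries, 65 by DESeq2, 5 by edgeR, 201 with quality weights, 9 with only the 2 groups and 8 without blood day 1 replicates 2 and 6. Lower genes numbered 0, 13, 0, 68, 0 and 156 in the same first 6 settings, 0 with a pseudocount of 5 or the replicate block and 4 without those replicates. Where none was lower, 268 to 440 genes by limma and 732 by edgeR were lower at an unadjusted p under 0.05. Leaving out 1 library gave 6 to 20 higher and 0 to 6 lower. The batch interaction was called for 164 genes with averaged baseline replicates, 2633 by DESeq2, 502 with quality weights, 3270 with only the 2 groups and 2520 without blood day 1 replicates 2 and 6, and for 581 to 2345 with 1 library left out (without baseline replicate 4 or 5, the remaining batch 2 baseline library is assumed to vary like the others). The cause of these differences was not tested. With the replicate block, 2895 genes were higher and 1644 lower. The correlation of same-numbered deviations from the batch mean was -0.030 to 0.019. It cannot decide whether the numbers pair libraries. Baseline replicates 1 to 3 hardly differed from each other, and batch 2 held only baseline replicates 4 and 5, whose deviations mirror each other. A group without a read sets only a bound, and batch 1 held the fewest reads.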
